A study of Bos taurus with 6 samples.

Results

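The 8 genes described here encode the urokinase pathway and the matrix metalloproteinases with their regulators: PLAU, PLAT, PLAUR, MMP1, MMP14, SPOCK1, TIMP1 and TIMP2. They were taken by name from the full table of 9537 genes measured by RNA sequencing in bovine blastocysts, and all 8 had a row in it. The names were selected on the levels and the difference between the groups in these same libraries, so that difference is given as a description and supports nothing about the 8 genes together. The low cryosurvival group held 3 libraries of in vitro produced Bos taurus blastocysts with low survival after vitrification, and the high cryosurvival group 3 libraries of such blastocysts with high survival. Embryos of both groups came from the same kind of culture, in a standard medium for bovine embryo production (SOFaaci), and the labels name no strain, genotype or further treatment. The titles also carry the code NV for each low and V for each high cryosurvival library, which the labels do not explain. The labels do not tell if RNA came from embryos before or after they were vitrified, or if a library is a pool or a separate culture. The p-values thus measure the spread between these samples alone, and that spread may be technical. Levels are in CPM, read counts divided by a scaled library size.

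Urokinase and tissue-type plasminogen activator cut plasminogen to plasmin, a broad protease that degrades fibrin and matrix proteins and activates the zymogens of some metalloproteinases. Metalloproteinases are secreted or membrane-bound zinc enzymes that cut collagen and other matrix components, and tissue inhibitors of metalloproteinases (TIMPs) bind them. Blastocysts secrete plasminogen activator, and the system has been studied in embryo hatching from the zona pellucida and in trophoblast contact with the uterus.

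In these blastocysts, 4 of the 8 genes had each low cryosurvival library above each high cryosurvival library: PLAU, MMP1, MMP14 and SPOCK1. The other activator PLAT, the receptor PLAUR and the inhibitors TIMP1 and TIMP2 overlapped between the groups. The same 4 genes had an adjusted p below 0.05 in the authors' deposited table, where 1.2% of all genes were called and 0.912% were called with a higher level in low cryosurvival embryos. Across all genes, 10.4% had their 3 low libraries above their 3 high libraries and 10.6% had them below, which is 21% without overlap. Limma, on log2(CPM + 1) with Benjamini-Hochberg adjustment over all genes, called 0 of the 8 and 0 of all 9537 genes (0% called), with 1142 genes (12%) at an unadjusted p below 0.05. Those 1142 include the 4 genes named first. Voom on the reads recovered from the CPM values also called 0 genes. Without low cryosurvival library 2, limma called 1300 genes (13.6%), and 777 of them (8.15% of all genes) were higher in low cryosurvival embryos. PLAU, MMP1, MMP14 and SPOCK1 were among these.

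The table held 14651477 to 19467022 reads in the low and 17591314 to 18987154 in the high cryosurvival libraries. Low cryosurvival library 2 stood apart: its root mean square distance from the mean of the other 2 of its group was 0.67 on the log2 scale, against 0.34 and 0.41 for low libraries 3 and 1 and 0.19 to 0.24 for the high libraries. It was the highest or lowest of the 6 libraries for 69.9% of genes. Keratins KRT8 and KRT18 of the trophectoderm, the outer epithelium, and the inner cell mass factor POU5F1 were abundant in each library, as in blastocysts. The 11 trophectoderm markers measured, of 13 listed, summed to 28340 to 39207 CPM in the low libraries, against 33032 to 36679 CPM in the high libraries. The 7 inner cell mass markers of 10 summed to 1186 to 1250 CPM in the low libraries, against 1271 to 1385 CPM in the high libraries. The 10 hypoblast markers of 13 summed to 2146 to 4115 CPM in the low libraries, against 3012 to 3737 CPM in the high libraries. Of markers listed for cells outside the embryo, the 8 cumulus and granulosa markers of 14 summed to 401 to 549 CPM in the low libraries, against 428 to 551 CPM in the high libraries. Most of this sum was HSD3B1 (245 to 311 CPM low, 260 to 357 CPM high) and CYP11A1 (111 to 239 CPM low, 118 to 142 CPM high). Each of the other markers of that list was at 22.4 CPM or less. The cells that these 2 transcripts came from were not tested. The 2 leukocyte markers of 6 summed to 5.56 to 9.19 CPM in the low and 9.54 to 12.2 CPM in the high libraries. The 2 oocyte markers of 10 summed to 5.74 to 19.4 CPM in the low and 6.84 to 7.66 CPM in the high libraries, and the 1 sperm marker of 8 was at 1.15 to 2.85 CPM in the low and 1.63 to 3.08 CPM in the high libraries. The inner cell mass and leukocyte sums did not overlap between the groups. The leukocyte sum rested on CD68, at 6.30 ± 1.30 CPM in the low and 10.3 ± 1.10 CPM in the high libraries (SD, n = 3 each). The other leukocyte marker, CD14, went the other way, with means of 1.40 CPM in the low and 0.789 CPM in the high libraries and overlapping groups. Without low library 2, the trophectoderm sum was lower in the low libraries, at 28340 to 31583 CPM, and the hypoblast sum was higher, at 3909 to 4115 CPM, with no overlap with the high libraries in either. KRT8 and KRT18 made up most of the trophectoderm sum, and FN1 most of the hypoblast sum, in each library. By gene, 8 of the 11 trophectoderm markers then lay below all high libraries (27.5% of all genes did) and 0 above. Of the 10 hypoblast markers, 6 lay above (27.6% of all genes did) and 1 below. The oocyte and sperm sums then also lay below the high libraries, while the cumulus and granulosa sums still overlapped. By gene, 4 of the 11 trophectoderm markers (GATA2, TFAP2A, TFAP2C and DAB2) were lower in every low library (36.4%, against 10.6% of all genes), and the median log2 difference of the list was -0.23. Of the 10 hypoblast markers, 3 (GATA4, RSPO3 and BMP2) were higher in every low library (30%, against 10.4% of all genes) and 1 (HNF4A) was lower, with a median of 0.48. Of the 7 inner cell mass markers, 4 had a log2 difference above 0, and the list median was 0.004. The epiblast factor NANOG was the 1 of them that was lower in every low library (14.3%, against 10.6% of all genes). It averaged 16.2 ± 5.20 CPM in the low and 38.7 ± 8.15 CPM in the high libraries (SD, n = 3 each). The authors' deposited table called it lower in the low group (adjusted p = 0.002). These marker genes were picked out after their values were seen, and the part of the marker shifts in the differences below was not tested. None of the measured markers was at 0 in any library, and the listed markers left out of these sums were not analysed here. In bulk embryos, fewer cells of a type and less RNA per cell cannot be told apart.

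PLAU encodes urokinase, the secreted serine protease that activates plasminogen at the cell surface. It was at 1029, 692 and 804 CPM in low cryosurvival libraries 1, 2 and 3, against 386, 545 and 454 CPM in high cryosurvival libraries 1, 2 and 3. The lowest low library lay above the highest high library by a gap smaller than the range within either group. The means were 842 ± 172 and 462 ± 79.6 CPM (SD, n = 3 each), a ratio of 1.82. The limma log2 difference, low minus high, was 0.86 with an SE of 0.20. Each PLAU value rested on many reads, from 9209 to 20619 in low and 6896 to 10392 in high cryosurvival libraries, so counting error is small beside the spread between libraries. Low library 2 had the fewest reads and the lowest CPM of its group, and without it the ratio was 1.98.

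PLAT, the tissue-type activator, did not follow PLAU. It was at 5.39, 1.35 and 7.02 CPM in low libraries 1, 2 and 3, against 7.56, 1.52 and 6.60 CPM in high libraries 1, 2 and 3. The library numbered 2 was the lowest in both groups, and the groups covered nearly the same range. The log2 difference was -0.15 with an SE of 0.61, and its sign changed when low library 2, high library 1 or high library 3 was left out, so no direction is given. In the deposited table the adjusted p of PLAT was 0.997.

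PLAUR encodes the receptor that anchors urokinase to the cell membrane. It was at 5.09, 3.83 and 3.93 CPM in low libraries 1, 2 and 3, against 3.31, 2.62 and 4.16 CPM in high libraries 1, 2 and 3. High library 3 lay above 2 of the 3 low libraries. The means were 4.28 ± 0.703 and 3.36 ± 0.771 CPM (SD, n = 3 each), and the log2 difference was 0.28 with an SE of 0.18 (limma adjusted p = 0.628). The PLAUR values rested on 51 to 102 reads per low and 50 to 75 reads per high library. The CPM ratio of PLAU to PLAUR within a library was 202, 181 and 205 in low libraries 1, 2 and 3, against 117, 208 and 109 in high libraries 1, 2 and 3. High library 2 had the highest ratio of all, so the groups overlapped in this ratio.

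**Figure D1:**
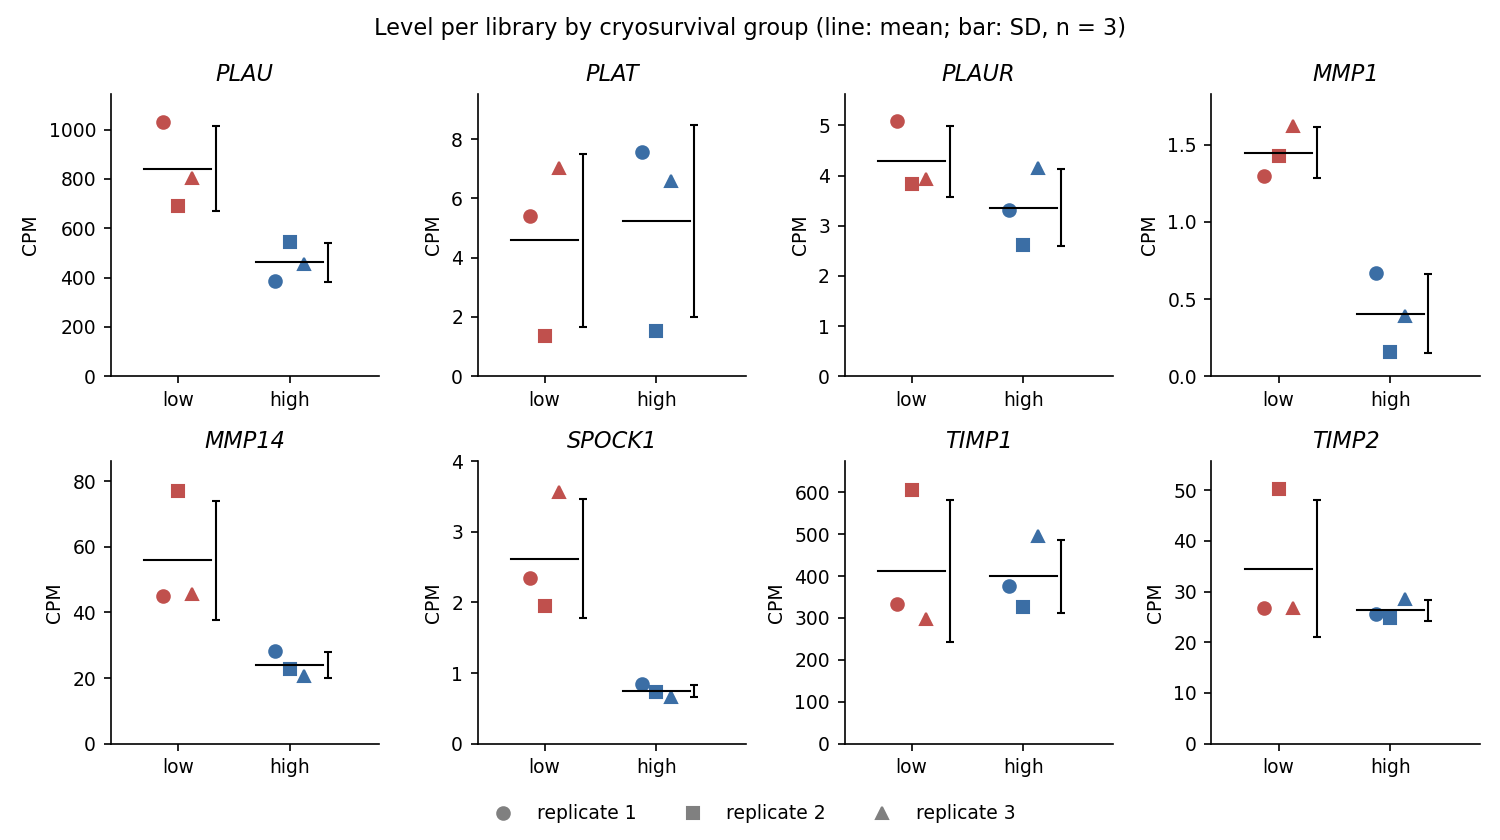
Level of each of the 8 genes in CPM (vertical axes, linear from 0 and scaled per gene) in the 3 low (red, left) and 3 high (blue, right) cryosurvival libraries; symbols mark the replicate number, the horizontal line is the mean and the bar the SD. PLAU, MMP1, MMP14 and SPOCK1 show no overlap between the groups, and the low library numbered 2 is the highest of 6 for MMP14, TIMP1 and TIMP2.

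MMP14 encodes a membrane-anchored metalloproteinase that cuts fibrillar collagen around the cell and activates the zymogen of MMP2. It was at 45.0, 76.9 and 45.7 CPM in low libraries 1, 2 and 3, against 28.2, 22.8 and 20.6 CPM in high libraries 1, 2 and 3. Each low library lay above each high library, and low library 2 was far above the other two of its group. The means were 55.9 ± 18.2 and 23.9 ± 3.94 CPM (SD, n = 3 each), a ratio of 2.34, and the log2 difference was 1.16 with an SE of 0.24. Without low library 2 the ratio was 1.90 and the log2 difference 0.91. MMP14 had the lowest adjusted p of the 8 genes in the authors' deposited table, 0.001, with a log2 fold of 1.23 after turning its sign to low over high.

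MMP1, interstitial collagenase, is a secreted enzyme that cuts fibrillar collagens. It was at 1.30, 1.43 and 1.62 CPM in low libraries 1, 2 and 3, against 0.672, 0.157 and 0.388 CPM in high libraries 1, 2 and 3. The low libraries were close together and above each high library. The ratio of the means, 1.45 ± 0.164 and 0.406 ± 0.258 CPM (SD, n = 3 each), was 3.57. These levels rested on 26, 19 and 31 reads in low libraries 1, 2 and 3, against 12, 3 and 7 reads in high libraries 1, 2 and 3. The exact Poisson 95% interval of the highest high library, 0.347 to 1.17 CPM, overlapped that of the lowest low library, 0.848 to 1.90 CPM, and such intervals cover counting error only. MMP1 ranked 9500 of 9537 genes by mean CPM, so its size of change depended on the scale: the log2 difference was 0.82 on log2(CPM + 1), 1.75 with a pseudocount of 0.1 and 0.26 with a pseudocount of 5. The authors' deposited table gives 1.83 for it as a log2 fold low over high, the 9th largest of all genes, with an adjusted p of 0.018.

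SPOCK1 encodes testican-1, a secreted proteoglycan; work in human cells has described testicans as inhibitors of the activation of MMP2 by membrane-type metalloproteinases. It was at 2.35, 1.95 and 3.56 CPM in low libraries 1, 2 and 3, against 0.840, 0.734 and 0.666 CPM in high libraries 1, 2 and 3. The high libraries were nearly equal, and each low library was above them. The means were 2.62 ± 0.838 and 0.747 ± 0.0877 CPM (SD, n = 3 each), a ratio of 3.51. The reads were 47, 26 and 68 in low libraries 1, 2 and 3, against 15, 14 and 12 in high libraries 1, 2 and 3, and the SD of the high libraries is below the spread that counting so few reads gives. The log2 difference was 1.03 with an SE of 0.18, and it was 1.65 with a pseudocount of 0.1, 0.40 with a pseudocount of 5 and 1.77 by voom. In the authors' deposited table the log2 fold, low over high, was 1.81 and the adjusted p 0.003.

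For PLAU, MMP1, MMP14 and SPOCK1 the limma adjusted p was 0.192, 0.164, 0.164 and 0.142. Without low cryosurvival library 2 it was 0.0239, 0.0313, 0.0193 and 0.0155. That library lowered PLAU and SPOCK1 and raised MMP14 relative to the other low libraries, while MMP1 was at 0.977 of their mean, so its effect on the size of the difference went in different directions among these genes. The deposited adjusted p values of the 4 genes, from the same 6 libraries, were 0.001 to 0.019.

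**Figure D2:**
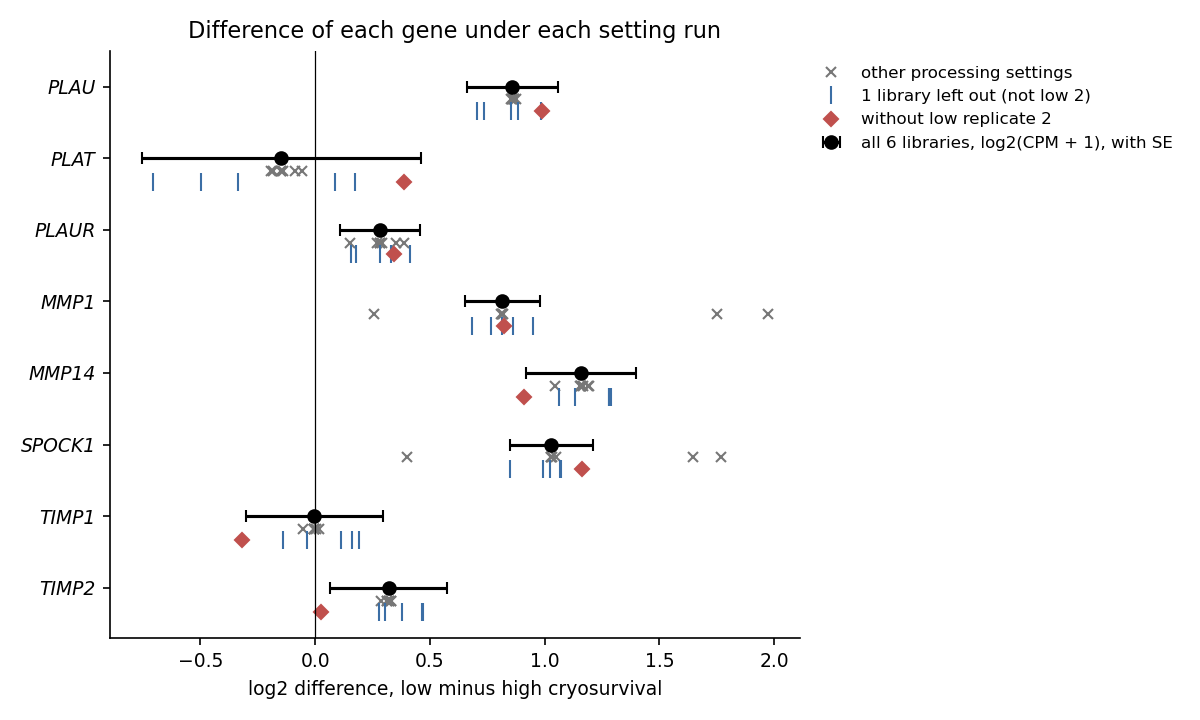
Log2 difference, low minus high cryosurvival (horizontal axis), of each gene with all 6 libraries (black point, bar is the SE), under other processing settings (crosses), with 1 library left out (blue ticks) and without low replicate 2 (red diamonds). PLAU, MMP1, MMP14 and SPOCK1 stay above 0 under each setting run. Most settings could not have turned their sign, since their groups do not overlap. PLAT and TIMP1 lie on both sides of 0, and MMP1 and SPOCK1 spread widely with the pseudocount.

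TIMP1 and TIMP2 are secreted inhibitors; TIMP1 inhibits most soluble metalloproteinases and is a weak inhibitor of MMP14, whereas TIMP2 inhibits MMP14 and also takes part in the activation of MMP2 on it. TIMP1 was at 332, 606 and 298 CPM in low libraries 1, 2 and 3, against 376, 326 and 496 CPM in high libraries 1, 2 and 3. Low library 2 was the highest of the 6 and the other 2 low libraries were among the lowest 3. The means, 412 ± 169 and 399 ± 87.3 CPM (SD, n = 3 each), differed by less than the spread between replicates. The log2 difference was -0.005 with an SE of 0.30. Without low library 2 it was -0.32 (limma adjusted p = 0.247), and the ratio of the means was 0.790.

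TIMP2 was at 26.8, 50.2 and 26.7 CPM in low libraries 1, 2 and 3, against 25.6, 24.7 and 28.6 CPM in high libraries 1, 2 and 3. Apart from low library 2, the 5 values lay between 24.7 and 28.6 CPM. The log2 difference was 0.32 with an SE of 0.25 (limma adjusted p = 0.737), and without low library 2 it was 0.03 with an SE of 0.10. The difference in means of TIMP2, 34.5 ± 13.5 CPM in the low and 26.3 ± 2.02 CPM in the high libraries (SD, n = 3 each), therefore rested on that library.

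Low library 2 raised MMP14, TIMP1 and TIMP2 by similar factors, to 1.70, 1.92 and 1.88 times the mean of low libraries 1 and 3. Ratios of these genes within a library, which were chosen after the values were seen and carry no test, varied less between the low libraries than the levels did. The CPM ratio of MMP14 to TIMP2 was 1.68, 1.53 and 1.71 in low libraries 1, 2 and 3, against 1.10, 0.924 and 0.720 in high libraries 1, 2 and 3. The ratio of MMP14 to TIMP1 was 0.135, 0.127 and 0.153 in low libraries 1, 2 and 3, against 0.0751, 0.0700 and 0.0415 in high libraries 1, 2 and 3. In both ratios each low library lay above each high library, as in the level of MMP14 itself. Between the high libraries these ratios varied more, relative to their means, than MMP14 did. They were 0.916 ± 0.191 to TIMP2 and 0.0622 ± 0.0181 to TIMP1, against 23.9 ± 3.94 CPM for MMP14 (SD, n = 3 each). The ratio of the inhibitors to each other, TIMP2 over TIMP1, was also higher in each low library, at 0.0805, 0.0827 and 0.0896, against 0.0681, 0.0758 and 0.0576 in high libraries 1, 2 and 3. Ratios of PLAU to PLAUR, PLAT, SERPINE2 and SERPINB2 were also taken and overlapped between the groups, while that of MMP1 to TIMP1 did not. All these ratios compare libraries and not genes, since CPM is not divided by transcript length.

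**Figure D3:**
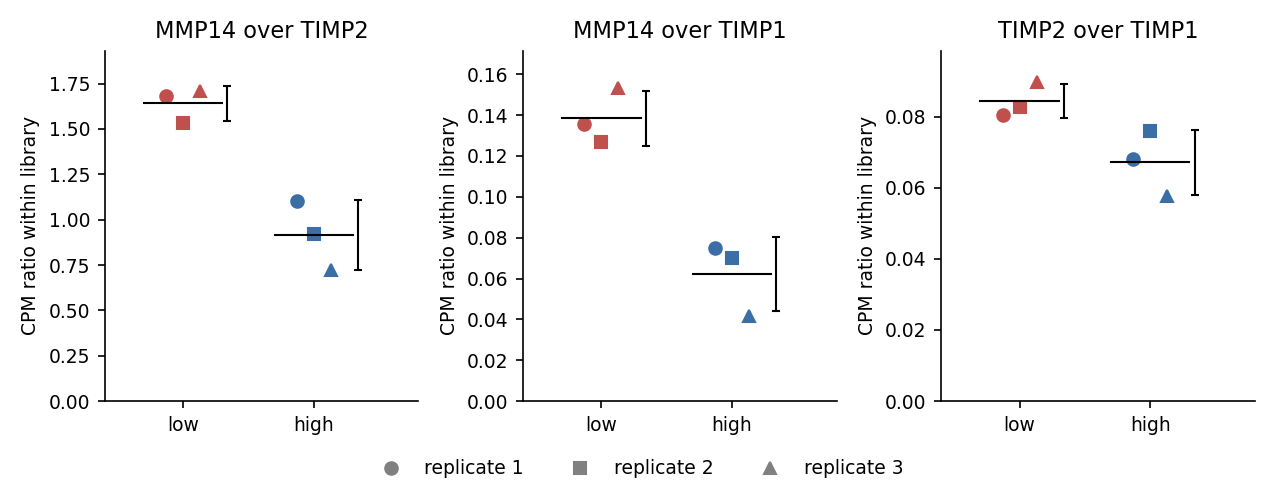
CPM ratios of MMP14, TIMP2 and TIMP1 within each library (vertical axes, linear from 0) in the low (red, left) and high (blue, right) cryosurvival groups; symbols mark the replicate number, the line is the mean and the bar the SD (n = 3). The low libraries lie above the high libraries in each ratio, and low replicate 2 lies near the other low libraries.

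Around these genes, 6 lists of the same system held 124 genes, and 68 of them were measured, the 8 genes above included. The lists were chosen with earlier results of these data known, so the shares below are a description and carry no test. Of the other 60, the deposited table called 1 higher and 0 lower in low cryosurvival embryos. Their groups did not overlap in 11 genes that were higher in low cryosurvival embryos (18.3%, against 10.4% of all genes) and 3 that were lower (5%, against 10.6% of all genes). The log2 difference was above 0 in 46 of the 60 and its median was 0.15, while over all genes it was above 0 in 4772 of 9537 with a median of 0.0002. Limma called 0 of the 60 over all genes, with 8 higher and 1 lower at an unadjusted p below 0.05. Without low library 2, a count added after the values were seen, the log2 difference was above 0 in 39 of the 60 (65%, against 49% of all genes) and the median was 0.12. The groups then did not overlap in 20 genes that were higher in low cryosurvival embryos (33.3%, against 27.6% of all genes) and 6 that were lower (10%, against 27.5% of all genes). Without that library limma called 9 of the 60 higher (15%, against 8.15% of all genes) and 0 lower (against 5.48% of all genes).

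Among the plasminogen activators, receptors and activating proteases, 11 of 17 listed genes were measured and their median log2 difference was 0.23. HGFAC, the hepatocyte growth factor activator, a serine protease, was the gene called besides PLAU in the deposited table (adjusted p = 0.039). It was at 4.44, 3.91 and 3.25 CPM in low libraries 1, 2 and 3, against 1.46, 1.89 and 1.66 CPM in high libraries 1, 2 and 3. ST14 encodes matriptase, an epithelial membrane protease that can activate the urokinase zymogen. It was at 262, 260 and 215 CPM in low libraries 1, 2 and 3, against 158, 188 and 153 CPM in high libraries 1, 2 and 3, without overlap (deposited adjusted p = 0.189). MST1, which encodes macrophage-stimulating protein, a plasminogen relative without protease activity, was lower in each low library, at 2.40, 2.25 and 3.35 CPM, against 4.09, 3.93 and 4.38 CPM in high libraries 1, 2 and 3. The plasminogen-binding proteins ANXA2 and ENO1 had ratios of low to high means of 1.06 and 1.18, and their groups overlapped.

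Of the serpin and other inhibitors of plasminogen activation, 12 of 14 were measured, 11 had a log2 difference above 0, and the median was 0.23, which was 0.14 without low library 2 and 0.37 without low library 3. None was called in the deposited table. SERPINE2, a urokinase inhibitor, and the membrane inhibitors SPINT1 and SPINT2 had ratios of 1.04, 1.16 and 1.12, each with overlapping groups. The groups did not overlap for the broad protease inhibitor A2M (ratio 1.60), the plasmin inhibitor SERPINF2 (1.55) and SERPINH1 (1.70), whose product is a collagen chaperone and not a protease inhibitor. Without low library 2 limma called A2M and SERPINH1.

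Of 23 matrix metalloproteinases listed, 6 were measured: MMP1, MMP14, MMP15, MMP12, MMP2 and MMP23B. Their median log2 difference was 0.32. MMP15, a second membrane-type enzyme, was at 107, 117 and 109 CPM in low libraries 1, 2 and 3, against 94.9, 98.9 and 94.0 CPM in high libraries 1, 2 and 3. Its groups did not overlap, but the ratio was 1.16 and the deposited adjusted p 0.929. MMP12, macrophage elastase, overlapped between the groups at a ratio of 1.25. MMP2, the gelatinase whose zymogen MMP14 activates, named after its values were seen, was at 3.15, 1.05 and 3.14 CPM in low libraries 1, 2 and 3, against 1.79, 1.57 and 1.44 CPM in high libraries 1, 2 and 3. Low library 2 was the lowest of the 6 for MMP2, and limma called the gene when that library was left out.

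Among the inhibitors, testicans and activators, 11 of 16 were measured and the median log2 difference was 0.08, which was 0.18 without low library 2. TIMP3, an inhibitor that is bound to the matrix, was at 6.14, 4.06 and 4.40 CPM in low libraries 1, 2 and 3, against 3.53, 2.46 and 2.66 CPM in high libraries 1, 2 and 3, without overlap (deposited adjusted p = 0.373). The hyaluronan receptor CD44 was at 2.65, 1.28 and 1.62 CPM in low libraries 1, 2 and 3, against 0.784, 0.315 and 0.998 CPM in high libraries 1, 2 and 3 (deposited adjusted p = 0.118). Without low library 2 limma called TIMP3 and CD44 along with SPOCK1. The tetraspanin CD151 was lower in each low library at a ratio of 0.923. The metalloproteinase inducer BSG and the matrix protein SPARC overlapped between the groups, at ratios of 1.06 and 1.09.

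The ADAM and ADAMTS list had 9 of 30 genes measured and a median log2 difference of 0.15, which was 0.34 without low library 2 and -0.06 without low library 1. Only ADAM15 was higher in each low library (11.1% of those measured, against 10.4% of all genes). Its ratio was 1.49 and its deposited adjusted p 0.712. The sheddases ADAM9, ADAM10 and ADAM19 overlapped, at ratios of 1.31, 1.24 and 1.16. ADAM10 was at 13.5 CPM in low library 2, against 89.7 and 68.5 CPM in low libraries 1 and 3. Of 24 cathepsins and other matrix proteases, 19 were measured, 0 were called in the deposited table and the median was 0.09, which was -0.02 without low library 2. The lysosomal proteases CTSB and CTSL were higher in each low library (10.5%, against 10.4% of all genes), at ratios of 1.14 and 1.16. CTSA was lower in each (5.26%, against 10.6% of all genes), at a ratio of 0.810. CTSD and CTSV overlapped, with ratios of 1.18 and 1.13.

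**Figure D4:**
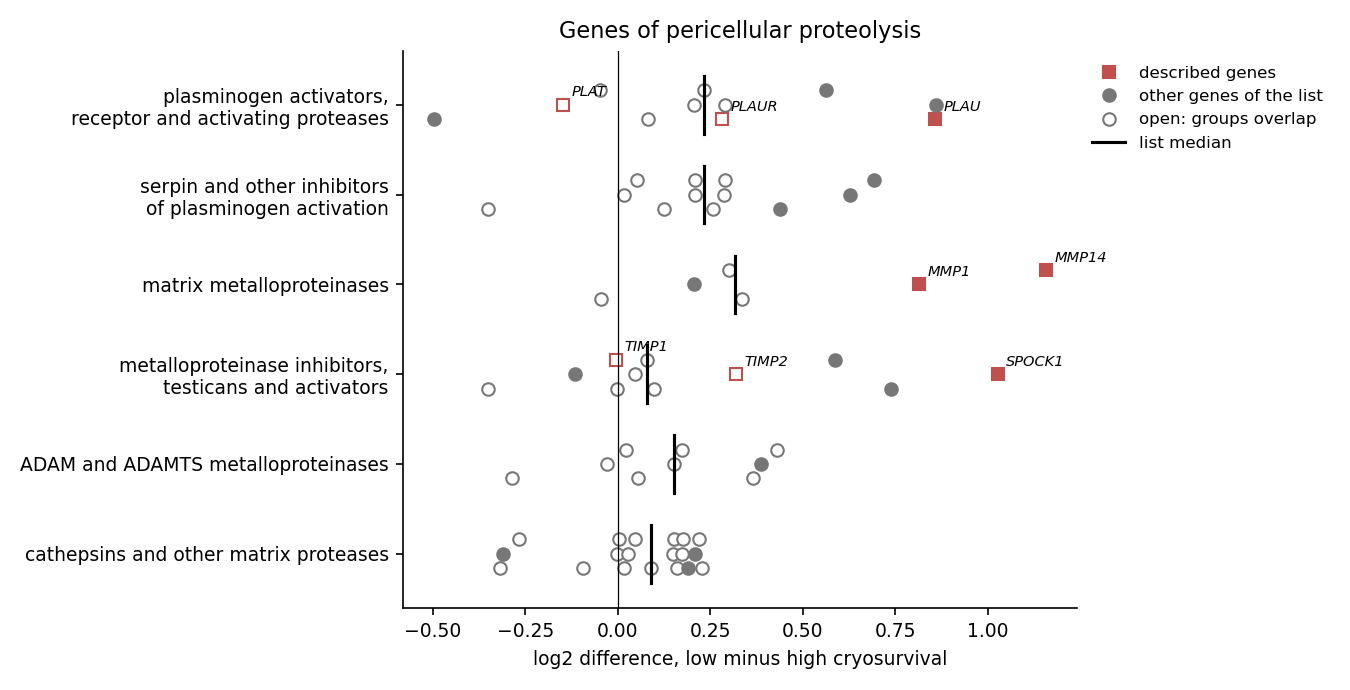
Log2 difference, low minus high cryosurvival (horizontal axis), of the 68 measured genes in 6 lists of pericellular proteolysis; red squares are the 8 genes described, filled symbols mark genes whose groups do not overlap, and black bars are list medians. The medians lie between 0.08 and 0.32. MMP14, SPOCK1 and PLAU lie at the high end, as does HGFAC, a gene outside the 8.

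To show how the 8 genes varied among themselves, the profile of each over the 6 libraries, on log2(CPM + 1) and centred on its own mean, was compared with that of each other gene by the root mean square distance, which a pseudocount of 1 makes smaller for genes at low CPM. Within the 8, TIMP1 and TIMP2 were the nearest pair (0.206), followed by MMP1 and SPOCK1 (0.226) and by PLAU and SPOCK1 (0.30). PLAT was at 0.713 or more from each of the others. Over the whole table the nearest profiles to PLAU were those of GPR107 (0.0831), KRT78 (0.0838) and ANTXR2 (0.0894). Those nearest to SPOCK1 were CCR7 (0.0967), PDE1B (0.0969) and COL17A1 (0.102), and those nearest to MMP14 were ZNF774 (0.126), PRSS2 (0.177) and CDKN1A (0.214). MMP1 was nearest to PDLIM2 (0.0927), PLAUR to WIPI1 (0.0870), TIMP1 to RBM3 (0.0591) and TIMP2 to PDZD11 (0.0364).

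PLAT had no close neighbour: its nearest were MX1 (0.246), an interferon-induced GTPase, SERPINB2 (0.313), an inhibitor of both plasminogen activators, and VIM (0.343), the vimentin filament protein of mesenchymal cells. MX1 was at 7.49, 3.91 and 9.16 CPM in low libraries 1, 2 and 3, against 9.97, 2.78 and 10.5 CPM in high libraries 1, 2 and 3. SERPINB2 was at 0.949, 0.0750 and 3.46 CPM in low libraries 1, 2 and 3, against 2.41, 0.367 and 3.16 CPM in high libraries 1, 2 and 3, where 0.0750 CPM is 1 read. Like PLAT, each of these genes was lowest in the library numbered 2 of both groups, which their selection by nearness to PLAT favoured. The share of all genes that were lowest in both of these libraries was not counted. LUM and DCN, matrix proteoglycans of stromal cells on the cumulus and granulosa list, named after their values were seen, were lowest there too. No other measured marker of that list was lowest in the library numbered 2 of both groups. STAR was the highest of its group there, at 21.2 CPM in low library 2 and 22.4 CPM in high library 2. LUM was at 6.39, 2.93 and 3.72 CPM in low libraries 1, 2 and 3, against 5.55, 1.57 and 2.39 CPM in high libraries 1, 2 and 3. DCN was at 0.549, 0.451 and 1.10 CPM in low libraries 1, 2 and 3, against 1.12, 0.315 and 1.22 CPM in high libraries 1, 2 and 3. It ranked 9534 of 9537 genes by mean CPM. The summed cumulus and granulosa markers were not lowest in these libraries, at 533 CPM in low library 2 and 491 CPM in high library 2. That sum was mostly HSD3B1 (247 and 305 CPM) and CYP11A1 (239 and 136 CPM). What the number 2 shares between the groups is not given in the labels, and its part in the level of PLAT was not tested.

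**Figure D5:**
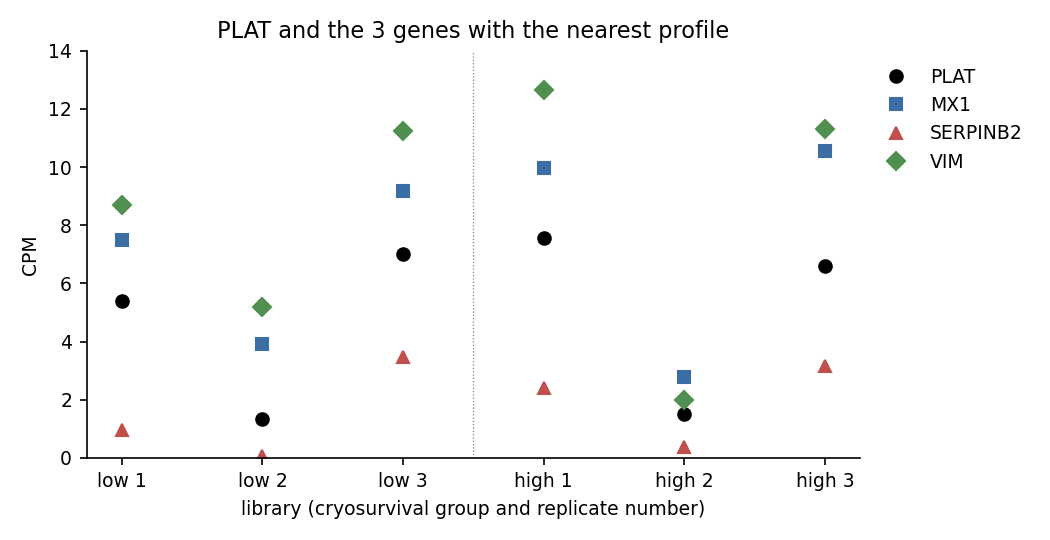
CPM of PLAT and of the 3 genes with the nearest profile, MX1, SERPINB2 and VIM (vertical axis, linear from 0), in the 3 low (left) and 3 high (right) cryosurvival libraries. Each of the 4 genes is lowest in replicate 2 of its group, PLAT at 1.35 CPM in the low and 1.52 CPM in the high group.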

How the data were processed

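Bovine blastocyst RNA was sequenced in 6 libraries, 3 of low and 3 of high cryosurvival. Per the labels' protocols, RNA was purified on columns with DNase digestion, had an integrity number of 7.7 or more, and went into NEBNext Ultra II RNA libraries. The submitters' processing notes name HTSeq 0.5.4p2, DESeq 1.12.1, Cufflinks 2.1.1, TopHat2 2.0.8, SAMtools 0.1.18 and Bowtie2 2.1.0, with no role. The sources used here do not give the genome build or annotation, whether strand was used, or how low genes were filtered. No coordinates are therefore printed, and reads of overlapping or antisense genes cannot be told apart. The deposited values were taken as CPM from the numbers themselves: up to 1000 CPM, 100% of the values were multiples of a step fixed for each library, to within 0.05 read, against 9.24% to 10.5% of random values. The lowest mean was 0.737 CPM. The authors' deposited log2 fold is high over low, and its sign was turned. The authors' deposited p-values carry 3 decimals and no stated tool.

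Limma 3.58.1 in R 4.3.3 was fitted to log2(CPM + 1) of all 9537 genes, with no covariate and Benjamini-Hochberg adjustment, at an adjusted p of 0.05; it was tested on simulated data. Differences are low minus high. An exact permutation test of 3 against 3 libraries cannot give a p below 0.1 and was not made. The 8 genes, the 6 gene lists and the 7 marker lists were chosen with earlier results of these data known. Named genes were, per list, those called, the 3 of highest mean CPM, up to 6 more without overlap between groups, and per described gene the 3 nearest profiles; exceptions are marked as named after their values were seen. Alternatives were other pseudocounts (0.1 and 5), a filter of 1 CPM in 3 libraries, TMM scaling, quantile normalization, the replicate number as a block, each library left out and, added after the table was seen, voom on the recovered reads. No sequences are shown. The values of 1 gene of the lists are not reported here.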

Additional observations from a re-analysis of the deposited data

How the results depend on the processing

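The number of genes called by limma was 0 with all 6 libraries, 7 with a pseudocount of 0.1 and 5 with TMM scaling, and ranged from 0 to 1300 with 1 library left out, the 1300 being without low cryosurvival library 2. It was 0 under the other settings, voom included. PLAU, MMP1, MMP14 and SPOCK1 kept a difference above 0 under all 13 alternatives, and passed the threshold in 1 of them, without low library 2. Their groups do not overlap, so another pseudocount, the filter, the block or a library left out could not have turned the sign. PLAT turned to 0.39 without low library 2, 0.17 without high library 1 and 0.09 without high library 3, and with 1 library left out it ranged from -0.71 to 0.39. TIMP1 turned to 0.0045 with TMM scaling, 0.016 with voom, 0.11 without low library 1, 0.19 without low library 3 and 0.16 without high library 3, and with 1 library left out it ranged from -0.32 to 0.19. With 1 library left out, called members ranged from 0 to 3 for the plasminogen activator list (11 measured) and the metalloproteinase list (6 measured). The range was also 0 to 3 for the list of metalloproteinase inhibitors, testicans and activators (11 measured). It was 0 to 2 for the serpin list (12 measured), and 0 to 1 for the ADAM (9 measured) and cathepsin (19 measured) lists. Each highest count was without low library 2, where limma called 13.6% of all genes, and 8.15% of all genes as higher in low cryosurvival embryos. The counts include PLAU, MMP1, MMP14 and SPOCK1. Of the genes called there, VLDLR, MMP2 and DPP4 were named after their values were seen. With the replicate number as a block limma called 0 genes, with 797 at an unadjusted p below 0.05 against 1142 without it. With 1 library left out, list medians ranged from 0.18 to 0.34 for plasminogen activators, 0.14 to 0.37 for serpins, 0.25 to 0.44 for metalloproteinases, 0.09 to 0.18 for their inhibitors, -0.06 to 0.34 for ADAM genes and -0.02 to 0.13 for cathepsins. The deviations of same-numbered libraries correlated at 0.12, -0.26 and -0.31 across genes for numbers 1, 2 and 3. Those of libraries with different numbers correlated at -0.36 to 0.37. Deviations centred within groups of 3 libraries cannot settle if the numbers pair the libraries. With the block the log2 difference of PLAT stayed at -0.15, and its SE was 0.17 against 0.61 without it. Tests by edgeR and DESeq2 on the recovered reads were not run. Depth limits MMP1 and SPOCK1 most, with 3 to 31 and 12 to 68 reads per library. Both passed the filter of 1 CPM in 3 libraries only through the low group, since each high library was below 1 CPM.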
